A study of Mus musculus with 10 samples.

Results

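Septins are GTP-binding proteins that assemble end to end into rods and filaments, which line the cell cortex together with actin and myosin. The mRNA of Sept1, Sept6, Sept7, Sept8 and Sept9 was followed here in naive splenic CD8+ T cells, in 10 RNA-seq libraries. These 5 genes were taken from the 12637 genes of the deposited table by their symbols, and they were chosen by the RPKM values of these same libraries, in which Sept8 differed by genotype and Sept9 by time. The genotype differences of Sept8 and the time differences of Sept9 are therefore given as descriptions with no test.

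The mutant genotype was Ikaros-Zn4-/-, in which both copies of Ikzf1 lack the part that encodes zinc finger 4 of Ikaros, a DNA-binding protein of lymphocytes, and it was set against wild type (WT). All mice were female C57Bl/6 animals of 6 weeks. Per the labels' protocols, CD8+ CD62Lhi CD44lo/- cells were sorted and either lysed at once (0 min) or stimulated for 30 or 120 min by antibodies fixed to the plate that bind CD3, in the T cell receptor complex, and the costimulatory receptor CD28. Both genotypes had 2 libraries for 0 min, 2 for 30 min and 1 for 120 min. Whether replicates came from separate mice is not stated in the labels, so the p-values rest on a spread between libraries that may be technical. The labels do not say whether the mutant protein is made at the normal level.

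Septin proteins fall into subgroups named after a founding member, and a rod takes its subunits from several of them. In mice, Sept1 and Sept2 belong to the SEPT2 subgroup, Sept6, Sept8 and Sept11 to the SEPT6 subgroup, Sept7 is the only member of its own, and Sept9 belongs to the SEPT3 subgroup. Members of a subgroup can stand in for each other at the same place in the rod, while Sept7 has no such substitute. In mouse T cells the septin cortex is known to stiffen the cell surface during migration, and loss of Sept7 or Sept9 is known to impair cell division under some stimuli.

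The deposited values are RPKM, in which reads are scaled to the length of the gene's transcript and to the reads of the library, which puts genes of unequal length on one scale. The gene lengths behind the values are not stated, and the median of all genes differed between times, so levels of different genes and times are compared only within these limits. All 5 septins passed the filter on low values, set at 0.5 RPKM averaged across all 10 libraries, which left 12203 genes for testing. Of 13 septin symbols in the GENCODE M21 annotation, 7 have a row in the table, the other two being Sept2 and Sept11. Depth recovered from the steps between RPKM values was 4.50 to 13.3 M reads per library. Ikzf1 had 206 and 226 RPKM at 0 min, 240 and 263 at 30 min and 214 at 120 min in Ikaros-Zn4-/- cells, against 134 and 148, 156 and 171, and 150 RPKM in WT cells, and a gene-level value cannot show the deleted part. Cd8a, the coreceptor chain that defines the cells, was measured in every library, at 52.2 to 511 RPKM in Ikaros-Zn4-/- cells and 47.5 to 436 RPKM in WT cells.

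Sept8 lies on chromosome 11 (53519257 to 53549565, plus strand; GRCm38 with GENCODE M21 gene models, used for every gene position; ENSMUSG00000018398), and Sept9 on the same chromosome (117199661 to 117362325, plus strand; ENSMUSG00000059248). Sept1 is on chromosome 7 (127214447 to 127233130, minus strand; ENSMUSG00000000486), Sept6 on chromosome X (36911326 to 36991794, minus strand; ENSMUSG00000050379) and Sept7 on chromosome 9 (25252439 to 25308571, plus strand; ENSMUSG00000001833). Ikaros binds DNA around the core GGGAA, and the promoters are shown because Sept8 differed between Ikaros genotypes and Sept9 was lower after stimulation. Sept7 is shown as the remaining gene with a matched window, not as a control. RefSeq promoter windows (GRCm38.p6) were matched for 3 of the 5 genes, Sept7, Sept8 and Sept9. The window furthest upstream of each is printed from 5′ to 3′ on the plus strand, the 250 bases before the transcript's start, with capitals marking each GGGAA or its reverse complement TTCCC.
Sept7 chr9:25251741-25251990: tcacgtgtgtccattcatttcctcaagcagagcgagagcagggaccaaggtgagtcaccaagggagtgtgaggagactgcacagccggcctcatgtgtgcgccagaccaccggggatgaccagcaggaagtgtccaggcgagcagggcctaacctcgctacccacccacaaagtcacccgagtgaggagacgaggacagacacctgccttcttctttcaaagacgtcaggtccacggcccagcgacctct
Sept8 chr11:53519486-53519735: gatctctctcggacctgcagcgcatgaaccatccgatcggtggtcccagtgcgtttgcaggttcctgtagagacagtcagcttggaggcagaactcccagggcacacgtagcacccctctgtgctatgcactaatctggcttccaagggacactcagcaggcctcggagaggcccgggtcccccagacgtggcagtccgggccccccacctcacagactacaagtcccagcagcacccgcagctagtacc
Sept9 chr11:117199411-117199660: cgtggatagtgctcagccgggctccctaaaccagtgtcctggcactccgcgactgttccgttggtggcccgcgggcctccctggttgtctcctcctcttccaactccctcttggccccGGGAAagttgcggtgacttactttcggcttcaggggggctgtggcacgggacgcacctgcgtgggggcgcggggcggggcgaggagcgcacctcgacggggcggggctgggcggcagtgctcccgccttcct

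The printed Sept9 window holds 1 match, which begins 132 bases before the start, and the printed Sept7 and Sept8 windows hold 0. In their other windows, Sept7 has 2 matches, Sept8 has 1 on the reverse strand, 214 bases before that start, and Sept9 has 1 in each of its other 3. The Sept8 windows lie inside its GENCODE gene model, which begins further upstream at 53519257. The bases before that position were not searched. Among 32851 RefSeq windows of this length, 56.2% hold at least 1 match on either strand and 21.2% hold at least 2. A match is a run of letters and not a binding site.

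Reads of related septins could be mistaken for each other only where their transcripts are alike. The longest runs that Sept8 shares with the other septins of its subgroup are short, 23 bases with Sept6 and 26 with Sept11, and they are shown because the Sept8 values below rest on that distinction.
Sept6 and Sept8: gtgaagctgcgggagatgctgat
Sept8 and Sept11: cagtacccttggggtgtggtgcaggt
Of 6228 windows of 50 bases in Sept8 transcripts 0 occur in the annotated transcripts of any other gene, and the same holds for 0 of 7554 in Sept9. For Sept1, Sept6 and Sept7 the shares found in other genes were 0.726%, 2.17% and 2.25%. Most of these lie where Sept1 shares 70 exonic bases with Zfp553 on the other strand, Sept6 shares 308 with the antisense RNA Gm15008 and Sept7 shares 245 with the pseudogene Gm48272. The library kit does not mark strand, so reads in those stretches cannot be assigned. Sept7 also has a run of 55 bases in common with Sept2. The antisense RNA Gm16045 overlaps Sept9 but shares 0 exonic bases with it. Sept8 has no overlapping gene. Its nearest neighbours in the table, Rpl9-ps3 and the kinesin gene Kif3a, lie 17498 and 17814 bases away.

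In resting cells the septin mRNA pool was mostly Sept1. Summed over the 7 measured septins, RPKM was 447 and 471 at 0 min in Ikaros-Zn4-/- cells, against 472 and 464 RPKM in WT cells. The SEPT2 subgroup, nearly all of it Sept1, made up 60.4% and 62.5% of that sum in Ikaros-Zn4-/- cells, against 68.6% and 65.1% in WT cells. As a single gene Sept9 followed, at 13.5% and 12.3% in Ikaros-Zn4-/- cells and 12.3% and 12.5% in WT cells, while the 3 genes of the SEPT6 subgroup together made up 17.1% and 16.2% in Ikaros-Zn4-/- cells and 10.8% and 11.8% in WT cells. Sept8 was the lowest of the 5 genes in every library of both genotypes.

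**Figure D1:**
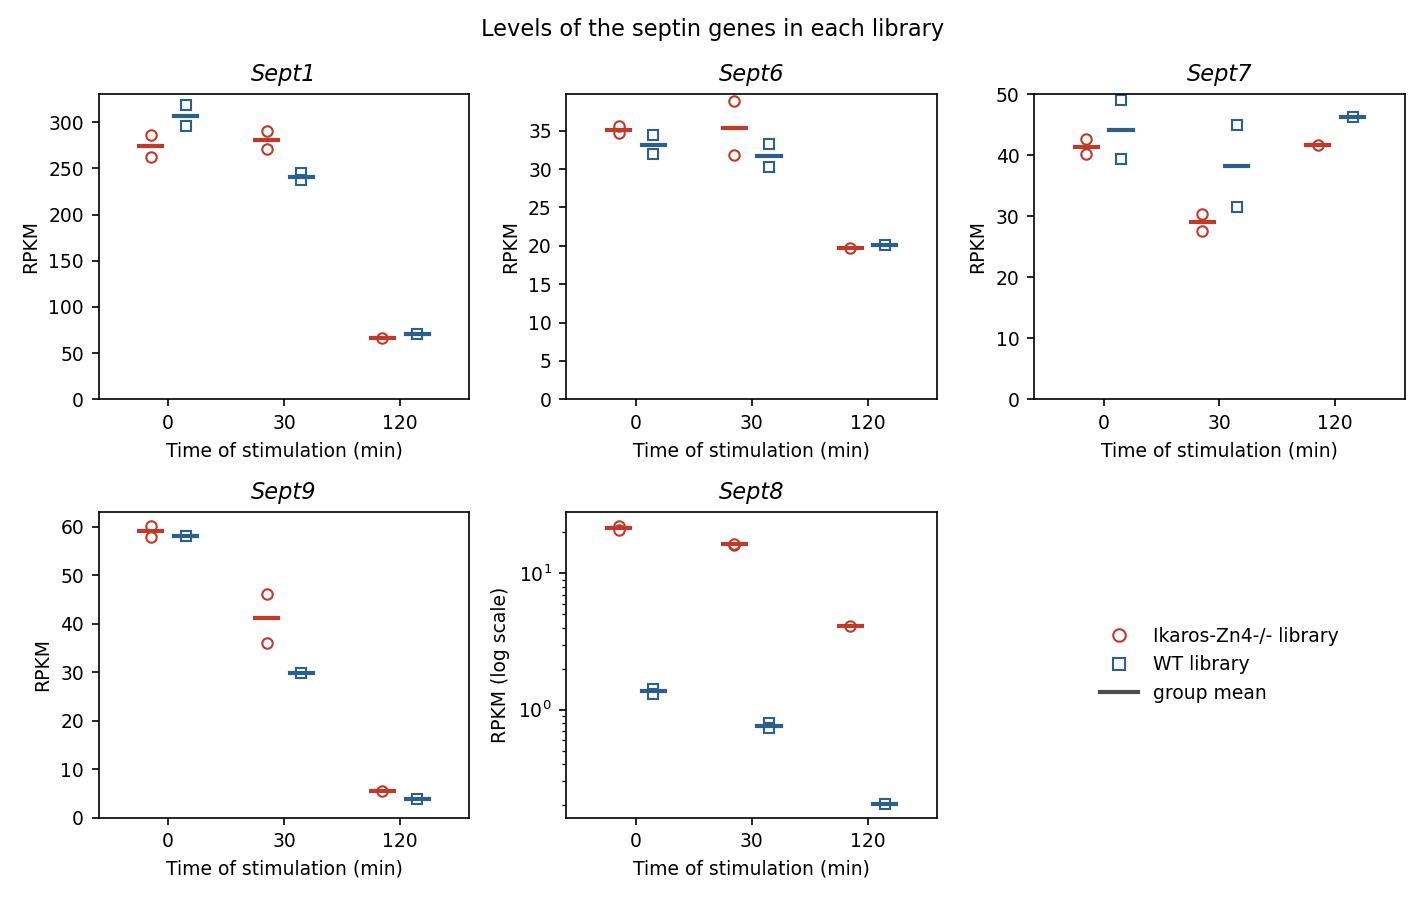
Levels of the 5 septin genes, in RPKM, in each of the 10 libraries against time of stimulation, with circles for Ikaros-Zn4-/- libraries, squares for WT libraries and bars for group means; Sept8 has a log axis, the other panels start at 0, and times are evenly spaced. For Sept8 the Ikaros-Zn4-/- libraries sit at 4.09 to 22.3 RPKM and the WT libraries at 0.203 to 1.41 RPKM, while the genotypes overlap for the other genes, and all but Sept7 are lower at 120 min than at 0 min.

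Sept8, of the SEPT6 subgroup, was present at a moderate level in Ikaros-Zn4-/- cells and at a low level in WT cells. Its level at 0 min was 22.3 and 20.9 RPKM in Ikaros-Zn4-/- libraries, against 1.41 and 1.31 RPKM in WT libraries. At 30 min it was 16.2 and 16.5 RPKM in Ikaros-Zn4-/- libraries, against 0.793 and 0.734 RPKM in WT libraries. At 120 min the single libraries had 4.09 RPKM in Ikaros-Zn4-/- cells (229 reads, 95% exact Poisson interval 3.58 to 4.65, counting error only) and 0.203 RPKM in WT cells (13 reads, 0.108 to 0.348). Every Ikaros-Zn4-/- library lay above every WT library, whatever the time, and the lowest of the mutant values was 2.90 times the highest WT value.

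The ratio of Ikaros-Zn4-/- to WT means for Sept8 was 15.9 in resting cells, 21.4 at 30 min and 20.1 at 120 min. On the log2(RPKM + 1) scale, which understates differences of low genes, Sept8 was higher in Ikaros-Zn4-/- cells by 3.26 in resting cells, 3.30 at 30 min and 3.04 over all times. Among the 12203 genes tested it ranked 17th from the highest difference over all times. Because Sept8 was chosen for this difference, no test is given for it, and the background of genes whose 5 Ikaros-Zn4-/- libraries do not overlap their 5 WT libraries, 3.54%, is given only for orientation. The values behind it are counted on 1811 and 574 reads at 0 min in Ikaros-Zn4-/- libraries, against 92 and 71 reads in WT libraries.

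Markers of other cells were looked at beside the Sept8 difference. Of 5 B cell markers, 3 were analysed here (Cd74, Cd79a and Cd79b). Their summed level was 29.8 to 49.4 RPKM in Ikaros-Zn4-/- libraries, against 9.61 to 16.1 RPKM in WT libraries. This sum is led by Cd74, the invariant chain of antigen presentation, at 20.3 to 41.4 RPKM in Ikaros-Zn4-/- libraries and 0.793 to 3.04 RPKM in WT libraries. The B cell receptor chain Cd79b went the other way, at 1.75 to 9.75 RPKM in Ikaros-Zn4-/- libraries and 4.93 to 14.8 RPKM in WT libraries, and Cd79a was at 0.152 to 6.26 and 0.192 to 3.79 RPKM. Cd74 had 20.3 and 23.3 RPKM in resting Ikaros-Zn4-/- cells, then 25.4 and 38.9 at 30 min and 41.4 at 120 min. In WT cells it had 0.793 and 1.04, 2.63 and 2.80, and 3.04 RPKM at these times.

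Of 6 myeloid markers the 3 with a row summed to 8.59 to 34.2 RPKM in Ikaros-Zn4-/- libraries and 8.14 to 24.8 RPKM in WT libraries. The integrin chain Itgam was at 0.869 to 1.61 and 0.164 to 0.307 RPKM. The other 2 overlapped between genotypes, Cst3 at 6.52 to 19.6 and 7.75 to 23.6 RPKM and Lyz2 at 0.822 to 14.1 and 0.226 to 4.05 RPKM. Of 5 natural killer cell markers 2 had a row, Klrd1 and Gzma. They summed to 9.74 to 82.0 RPKM in Ikaros-Zn4-/- libraries and 11.01 to 66.1 RPKM in WT libraries. Klrd1 led this sum and overlapped between genotypes, at 7.63 to 76.4 RPKM in Ikaros-Zn4-/- libraries and 11.01 to 66.1 RPKM in WT libraries. The granzyme Gzma was at 2.10 to 9.28 RPKM in Ikaros-Zn4-/- libraries, against values listed at 0 to 0.212 RPKM in WT libraries. The list of CD4 and regulatory T cells has a row only for Ctla4, at 4.38 to 34.7 RPKM in Ikaros-Zn4-/- libraries and 2.75 to 33.8 RPKM in WT libraries, and among erythroid and platelet markers only Gp1ba, at 0.191 to 1.21 and 0.190 to 1.68 RPKM. The part of any of these in the Sept8 difference was not tested.

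Sept8 fell with stimulation in both genotypes, a comparison that did not enter its choice. In Ikaros-Zn4-/- cells it was at 75.7% of the 0 min level at 30 min and 18.9% at 120 min, against 56.2% and 15.0% in WT cells. These are 5.29-fold and 6.68-fold lower levels at 120 min. Relative to the median of all genes, which moved by -0.13 at 30 min and -0.32 at 120 min against 0 min and by -0.22 between 30 and 120 min, the mean log2 change of both genotypes was -0.27 at 30 min (SE 0.09, adjusted p = 0.0287, limma) and -1.25 at 120 min (SE 0.11, adjusted p = 6.38e-05, limma). All stimulation changes below are likewise given relative to these medians, while the adjusted p tests the change on the deposited scale, for Sept8 -0.40 and -1.56. The 30 min call was lost under median ratio scaling (adjusted p = 0.0845) and on leaving out any single library of the 0 or 30 min groups (adjusted p = 0.0540 to 0.0851).

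The Sept8 difference between genotypes was present before stimulation and at each later time. Whether the fall of Sept8 differed between genotypes was tested as an interaction. At 120 min it was -1.18 on the log2(RPKM + 1) scale (SE 0.23, adjusted p = 0.703, limma), but with a pseudocount of 0.1 it was -0.11 (adjusted p = 0.987) and with limma-voom on recovered reads 0.29 (adjusted p = 0.983). The estimate was below 0 with either pseudocount and above 0 with limma-voom, so its size and sign depended on the scale. As a percent of the 0 min level, Sept8 at 120 min was 18.9% in Ikaros-Zn4-/- cells and 15.0% in WT cells. WT values were 0.203 to 1.41 RPKM, near or below the pseudocount of 1, where log2(RPKM + 1) understates changes. The -1.18 is therefore not read as a larger fall in the mutant.

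Sept6, the founding member of the same subgroup and its most abundant gene here, did not pass the test between genotypes. It had 34.6 and 35.6 RPKM at 0 min, 31.9 and 38.9 at 30 min and 19.7 at 120 min in Ikaros-Zn4-/- cells, against 31.9 and 34.5, 30.3 and 33.2, and 20.1 RPKM in WT cells. Both Ikaros-Zn4-/- libraries lay just above both WT libraries at 0 min, and the genotypes overlapped at 30 min. The difference over all times was 0.08 (95% interval -0.10 to 0.27, adjusted p = 0.598, limma). With stimulation Sept6 was at 56.1% of the 0 min level at 120 min in Ikaros-Zn4-/- cells and at 60.6% in WT cells. Its change at 120 min was -0.43 relative to the median (SE 0.12, adjusted p = 0.00135, limma), and at 30 min 0.10 relative to the median and -0.03 on the deposited scale (adjusted p = 0.848, limma).

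Within the SEPT6 subgroup, Sept8 took a larger share in the mutant. It was 29.2% and 27.5% of the summed RPKM of Sept6, Sept8 and Sept11 at 0 min in Ikaros-Zn4-/- cells, against 2.77% and 2.39% in WT cells. At 30 min it was 27.7% and 24.3% in Ikaros-Zn4-/- cells, against 1.89% and 1.66% in WT cells, and at 120 min 13.8% and 0.741%. The subgroup sum at 0 min was 76.5 and 76.1 RPKM in Ikaros-Zn4-/- cells, against 50.8 and 54.8 RPKM in WT cells. It was 58.7 and 67.9 RPKM in Ikaros-Zn4-/- cells and 41.9 and 44.1 RPKM in WT cells at 30 min, and by 120 min 29.6 RPKM in Ikaros-Zn4-/- cells and 27.5 RPKM in WT cells. These shares contain the Sept8 difference that chose the gene and are a description.

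**Figure D2:**
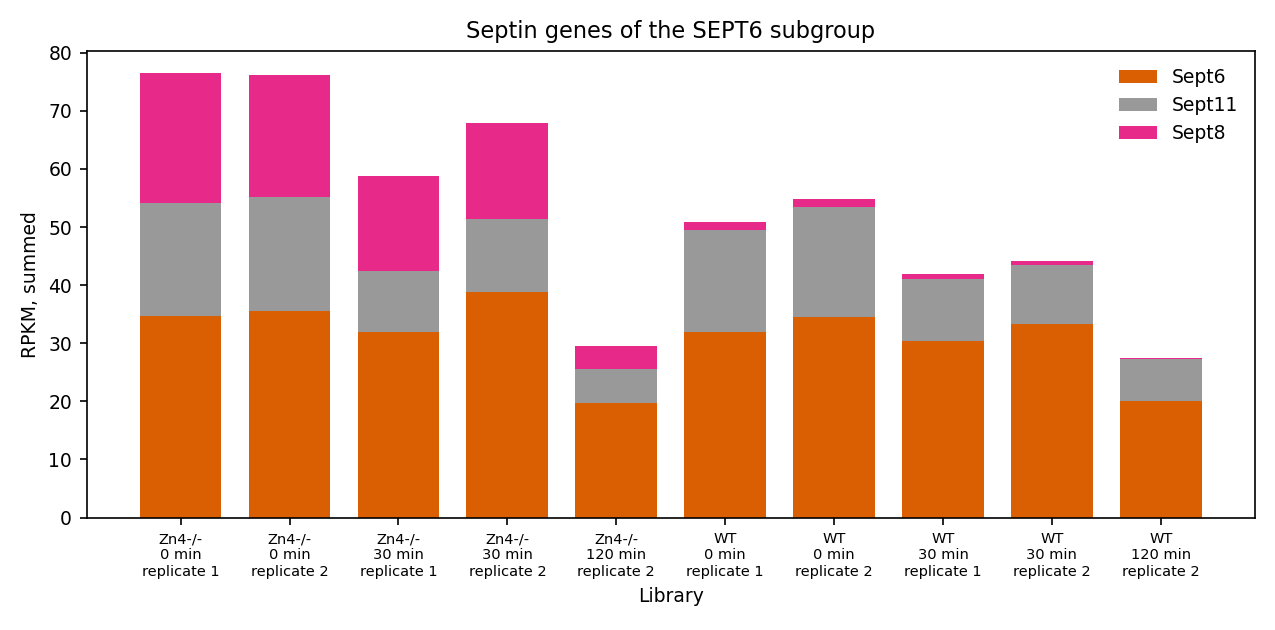
Summed RPKM of the SEPT6 subgroup genes in each library, with Ikaros-Zn4-/- libraries on the left and WT libraries on the right; each bar stacks Sept6, Sept11 and Sept8. The Sept8 segment is 13.8% to 29.2% of the bar in Ikaros-Zn4-/- libraries and 0.741% to 2.77% in WT libraries, while the Sept6 segment is 19.7 to 38.9 RPKM in Ikaros-Zn4-/- libraries and 20.1 to 34.5 RPKM in WT libraries.

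Sept11, the remaining measured gene of the subgroup, fell at both times. It had 19.6 and 19.6 RPKM at 0 min, 10.6 and 12.5 at 30 min and 5.79 at 120 min in Ikaros-Zn4-/- cells, against 17.5 and 19.0, 10.8 and 10.2, and 7.11 RPKM in WT cells. Its change relative to the median was -0.60 at 30 min (adjusted p = 0.00446, limma) and -1.11 at 120 min (adjusted p = 7.89e-05, limma). Within the subgroup, the share of Sept6 was 45.3% and 46.8% at 0 min, 54.2% and 57.2% at 30 min and 66.6% at 120 min in Ikaros-Zn4-/- cells, against 62.8% and 62.9%, 72.3% and 75.3%, and 73.3% in WT cells.

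Sept1, a septin known mainly from lymphoid cells, was the most abundant member in every library. It had 262.5 and 286.7 RPKM at 0 min, 270.6 and 290.2 at 30 min and 66.5 at 120 min in Ikaros-Zn4-/- cells, against 318.5 and 295.8, 245.3 and 237.1, and 71.0 RPKM in WT cells. The Ikaros-Zn4-/- libraries thus lay below the WT libraries at 0 min and above them at 30 min. Neither difference passed the test, with -0.16 at 0 min (95% interval -0.47 to 0.14, adjusted p = 0.648, limma) and 0.22 at 30 min (-0.09 to 0.52, adjusted p = 0.442, limma), and the interaction at 30 min was 0.38 (adjusted p = 0.876, limma).

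Most of the Sept1 fall came after 30 min. The 30 min change was -0.03 relative to the median (adjusted p = 0.262, limma), whereas between 30 and 120 min it was -1.69 (SE 0.11, adjusted p = 0.000131, limma). Against 0 min, the 120 min level was 4.13-fold lower in Ikaros-Zn4-/- cells and 4.32-fold lower in WT cells, a mean change of -1.75 relative to the median (SE 0.11, adjusted p = 3.70e-05, limma). Among 12203 genes it ranked 376th from the lowest at 120 min. Zfp553, the gene whose exons overlap those of Sept1, stayed at 3.01 to 7.50 RPKM in Ikaros-Zn4-/- libraries and 3.21 to 8.24 RPKM in WT libraries.

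Sept7, the subunit without a substitute, was at 101% of its 0 min level at 120 min in Ikaros-Zn4-/- cells and at 105% in WT cells. It had 40.2 and 42.6 RPKM at 0 min, 27.6 and 30.4 at 30 min and 41.7 at 120 min in Ikaros-Zn4-/- cells, against 39.3 and 49.1, 31.5 and 45.0, and 46.4 RPKM in WT cells. In Ikaros-Zn4-/- cells both 30 min libraries lay below the others, and in WT cells the 30 min libraries overlapped those at 0 min. The change at 120 min was 0.36 relative to the median and on the deposited scale 0.04 (95% interval -0.35 to 0.44, adjusted p = 0.841, limma). Under median ratio scaling it was 0.45 and passed the test (adjusted p = 0.0247, limma).

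At 30 min the Sept7 change was -0.23 relative to the median (SE 0.14, adjusted p = 0.108, limma), and it passed the test with limma-voom on recovered reads (adjusted p = 0.0392). Between 30 and 120 min Sept7 changed by 0.62 relative to the median (adjusted p = 0.0858, limma). That comparison passed under median ratio scaling (adjusted p = 0.00619), with limma-voom (adjusted p = 0.0294) and without WT 30 min replicate 2 (adjusted p = 0.0297). Between genotypes Sept7 differed by -0.21 over all times (95% interval -0.47 to 0.05, adjusted p = 0.326, limma). Its order of group means ran between 46.4 RPKM in WT cells at 120 min and 29.0 RPKM in Ikaros-Zn4-/- cells at 30 min, and no neighbours in that order were further apart than 2 pooled SD.

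Sept9, whose human counterpart joins the rods at their centre and binds actin and microtubules, had the largest fall of the 5 genes. Its level in Ikaros-Zn4-/- cells was 60.3 and 57.9 RPKM at 0 min, 36.2 and 46.1 at 30 min and 5.52 at 120 min, against 58.2 and 58.1, 29.9 and 29.8, and 3.90 RPKM in WT cells. All 4 libraries at 30 min lay below all 4 at 0 min, and both at 120 min lay below all others. How many other genes separate this way by time was not counted. At 120 min this was 9.34% of the 0 min level in Ikaros-Zn4-/- cells, a 10.7-fold lower value, and 6.71% in WT cells, a 14.9-fold lower value. Relative to the median the log2 change was -0.60 at 30 min and -3.08 at 120 min, the 10th lowest of 12203 genes. Sept9 was chosen for this change, so no test is given.

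The genotype differences of Sept9 did not enter its choice. At 0 min the difference was 0.02 (95% interval -0.30 to 0.35, adjusted p = 0.968, limma). At 30 min both Ikaros-Zn4-/- libraries lay above both WT libraries and the ratio of means was 1.38, but the difference of 0.44 did not pass (95% interval 0.11 to 0.76, adjusted p = 0.174, limma). Over all times it was 0.27 (SE 0.10, adjusted p = 0.159, limma), and over that comparison's other settings its adjusted p was 0.138 to 0.314. The interactions were 0.42 at 30 min (adjusted p = 0.876) and 0.39 at 120 min (adjusted p = 0.985, limma).

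**Figure D3:**
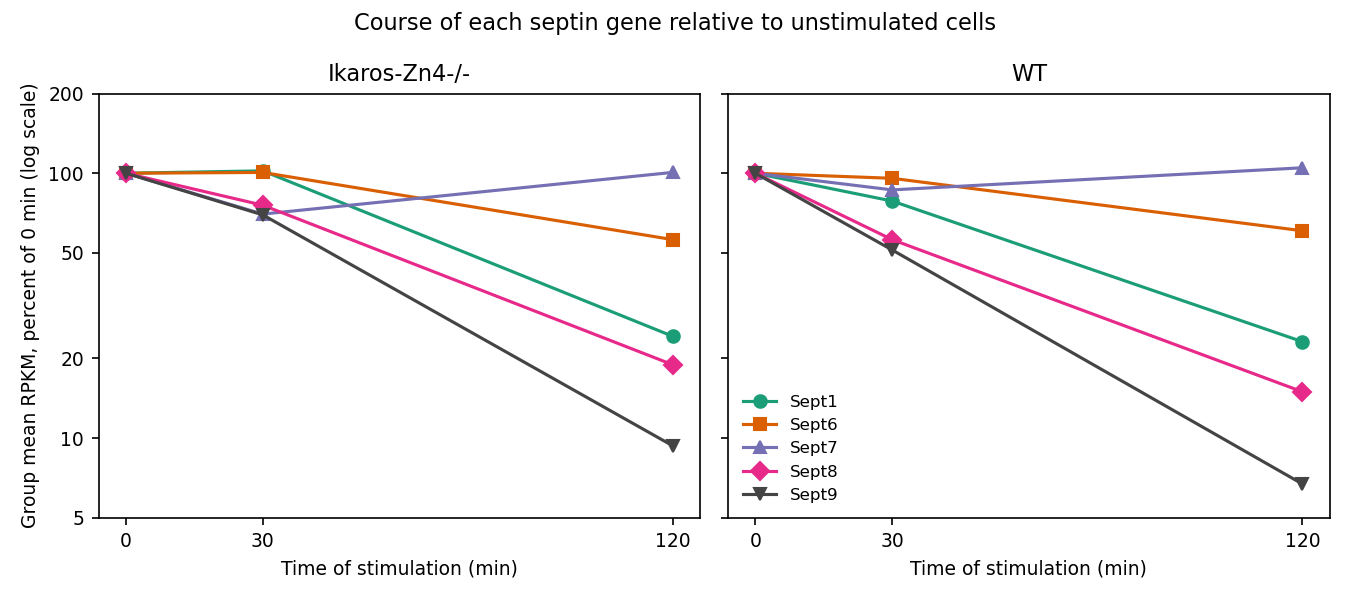
Group mean RPKM of each septin as a percent of its 0 min mean (log axis) against time of stimulation in minutes, with Ikaros-Zn4-/- cells on the left and WT cells on the right; each point is the mean of 2 libraries at 0 and 30 min and 1 library at 120 min. In both genotypes Sept9 ends lowest, at 9.34% and 6.71%, followed by Sept8, Sept1 and Sept6, while Sept7 ends at 101% and 105%.

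Counting the genes that were free to be tested in each comparison, 0 of 4 members were called between genotypes over all times, where 9.42% of all genes were called, and 0 of 4 at 0 min and at 30 min, where the background was 2.47% and 2.61%. With stimulation, 1 of 4 was called at 30 min against 0 min (Sept8, lower), where 19.0% of all genes were called and 12.5% were called lower. At 120 min against 0 min 3 of 4 were called, Sept1, Sept6 and Sept8, all lower, where 59.7% of all genes were called and 40.4% were called lower. Between 30 and 120 min the same 3 were called lower, against 48.2% called and 31.3% called lower. Against so broad a background these counts of 4 genes are no result about septins as a group.

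No septin had an interaction past the threshold, and neither had any of the 12203 genes (limma, 0 called at 30 and at 120 min, 656 and 661 at an unadjusted p under 0.05, and 0 and 0 with limma-voom). Over other settings the count at 120 min was 13 genes with no filter on low values and 1 gene with a pseudocount of 0.1, and at 30 min it was 1 gene without WT 0 min replicate 2, none of them one of the 5 septins. The 120 min groups hold 1 library each, assumed to vary like the other groups. CD8 T cell markers fell as well, 5 of 5 at 120 min against 0 min, where 40.4% of all genes were called lower. Cd8a was at -2.82 relative to the median (adjusted p = 3.70e-05, limma). In bulk RNA a lower level can come from fewer cells of a type or from less RNA per cell, and these cannot be told apart.

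**Figure D4:**
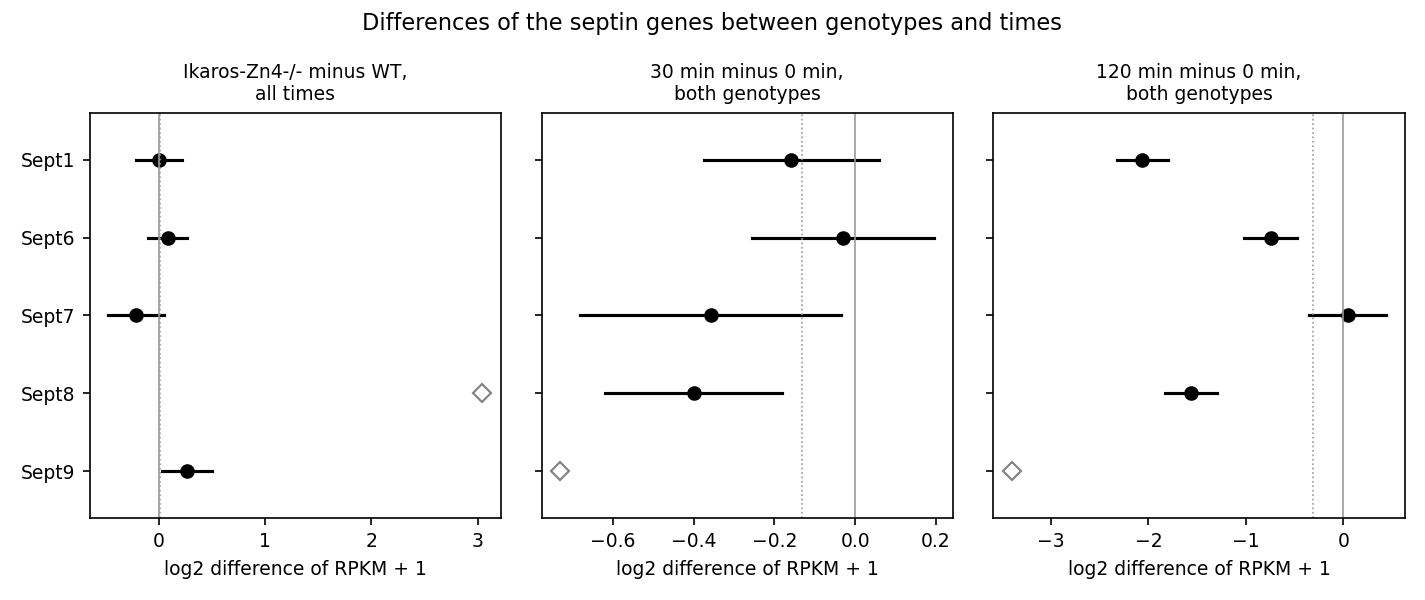
Log2 differences of RPKM + 1 for the 5 septins between Ikaros-Zn4-/- and WT cells over all times, 30 and 0 min, and 120 and 0 min; points are limma estimates with 95% intervals, open diamonds are the comparisons for which Sept8 and Sept9 were chosen, shown without interval, solid lines mark 0 and dotted lines the median of all genes. The genotype estimates of the other 4 genes lie between -0.21 and 0.27, and at 120 min only the Sept7 interval includes 0.

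Genes whose levels ran most like each septin over the 10 libraries were ranked by Pearson's r of log2(RPKM + 1) among 12202 other genes, as a description over libraries that share their groups. For Sept8 these were Pyroxd2, an oxidoreductase gene (r = 0.995), the glypican gene Gpc1 (r = 0.990) and the membrane protein gene Tmem176a (r = 0.990). Pyroxd2 had 23.6 and 19.1 RPKM at 0 min, 20.3 and 18.3 at 30 min and 4.01 at 120 min in Ikaros-Zn4-/- cells, against 1.61 and 1.12, 1.35 and 1.05, and 0.397 RPKM in WT cells. Tmem176a had 66.1 and 64.3 RPKM at 0 min, 51.4 and 52.8 at 30 min and 14.9 at 120 min in Ikaros-Zn4-/- cells, against 1.25 and 2.11, 0.617 and 0.768, and 0.255 RPKM in WT cells. For Pyroxd2, Gpc1 and Tmem176a, as for Sept8, every Ikaros-Zn4-/- library lay above every WT library. These genes were picked by likeness to Sept8, so their separation is no support for the Sept8 difference.

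For Sept9 the nearest were Coq9 (r = 0.996), of coenzyme Q synthesis, the cysteine desulfurase gene Nfs1 (r = 0.996) and Dennd2d (r = 0.995). For Sept1 they were Agpat3 (r = 0.997), Ucp2, a mitochondrial carrier gene (r = 0.995), and Eml2 (r = 0.995), and for Sept6 Tmem234 (r = 0.989), Zdhhc21 (r = 0.989) and Micu2 (r = 0.988). Sept7 had the least close companions, Zfp748 (r = 0.958), the origin recognition gene Orc4 (r = 0.930) and Dcaf7 (r = 0.922). None of the other septins was among the 3 nearest genes of any member.

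Genes that act with septins were counted from lists. Cdc42, a small GTPase, and its effector proteins of the Cdc42ep family, which bind septins, had 3 of 6 genes tested. Cdc42ep3 was lower in Ikaros-Zn4-/- cells, with a log2 difference of -0.81 over all times (adjusted p = 0.00810, limma). Cdc42 and Cdc42ep4 were not called in that comparison, where 9.42% of all genes were called. With stimulation Cdc42ep4 rose by 1.82 relative to the median at 30 min (SE 0.12, adjusted p = 0.000980, limma). At 120 min its rise was 2.01 (adjusted p = 0.000122, limma). Cdc42ep4 began low, at 0.122 to 0.358 RPKM at 0 min, and had 2.19 to 4.52 RPKM at 30 min. At 120 min 1 of the 3 was called higher and 0 lower, where 19.3% of all genes were called higher and 40.4% lower. Median ratio scaling gave 2 and 0, and the list's median was 0.54 relative to all genes.

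Of 11 cytokinesis genes 5 were tested. At 120 min against 0 min 0 were called higher and 1 lower, where 19.3% of all genes were called higher and 40.4% lower. The list median was 0.48 relative to all genes. Median ratio scaling gave 2 higher and 1 lower, and quantile normalization 4 and 1. The gene called lower was Racgap1, which encodes a GTPase-activating subunit of the central spindle complex, with a change of -0.70 relative to the median (adjusted p = 0.00705, limma), while the other 4 had changes of 0.39 to 0.55. Kif23, which encodes the kinesin of that complex, changed by 0.58 relative to the median between 30 and 120 min (adjusted p = 0.0325, limma). This is the mean of both genotypes, and 48.2% of all genes were called in that comparison. In Ikaros-Zn4-/- cells Kif23 had 5.19 and 6.03 RPKM at 30 min and 11.7 in the single library at 120 min. In WT cells it had 9.75 and 9.54 RPKM at 30 min and 8.13 at 120 min, so it rose only in the mutant. Between genotypes over all times Racgap1 was lower in Ikaros-Zn4-/- cells, with a log2 difference of -1.20 (adjusted p = 0.00182, limma). The other 4 were not called, and 9.42% of all genes were called in that comparison.

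Of 15 cortical actomyosin genes tested, 3 were called higher and 8 lower at 120 min, where 19.3% of all genes were called higher and 40.4% lower, with a list median of -0.12 relative to all genes. The membrane linker gene Ezr rose by 1.21 relative to the median (adjusted p = 0.000766, limma) and the kinase genes Rock1 and Rock2, whose products act on myosin, both by 1.02, while the guanine nucleotide exchange factor gene Arhgef18 fell by 1.90 (adjusted p = 3.70e-05, limma), the actin crosslinker gene Flna by 1.04 and the membrane linker gene Msn by 0.72. Median ratio scaling gave 4 higher and 4 lower, and quantile normalization 3 and 5, so the list had no firm direction. Between genotypes over all times Flna was higher in Ikaros-Zn4-/- cells by 0.33 (adjusted p = 0.0333, limma) and Arhgef18 differed by -0.45 (adjusted p = 0.0133, limma). Of all genes 9.42% were called between genotypes over all times. Under quantile normalization 0 genes of this list were called higher and 2 lower in that comparison, so the Flna call was lost there.

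Of 15 tubulin and microtubule genes tested, 8 were called higher and 3 lower at 120 min against the same background shares, with a list median of 0.67 relative to all genes, and 9 and 2 under either median ratio scaling or quantile normalization. Tubb2a rose by 2.39 relative to the median (adjusted p = 0.00302, limma), Tubb2b by 1.49 and the tubulin-binding gene Stmn1 by 1.43, while the microtubule-associated gene Map4 fell by 0.85 (adjusted p = 0.000282, limma). Tubb2b and Stmn1 were low at 0 min, at 0.231 to 1.36 and 0.585 to 1.27 RPKM. At 30 min 4 genes of the list were called higher and 1 lower, where 6.51% of all genes were called higher and 12.5% lower. Between genotypes only Mapre2, which encodes a protein of growing microtubule ends, was called, higher in Ikaros-Zn4-/- cells by 0.99 over all times (adjusted p = 0.00164, limma). The share of all genes called in that comparison was 9.42%.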

How the data were processed

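RNA of sorted naive CD8+ T cells was sequenced single-end with the TruSeq RNA kit v2, per the labels' protocols. The authors deposited 1 table of RPKM values. TopHat2 2.0.12, TopHat and HTSeq 0.6.1 are named in the submitters' processing notes. The gene lengths behind the RPKM and the gene filter are not stated. Every gene listed reaches a group mean of at least 1 RPKM.

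From the table, log2(RPKM + 1) of 12203 genes was fitted with limma 3.58.1 in R 4.3.3 (eBayes with an intensity trend), by 1 mean per group (4 residual degrees of freedom) or, for genotype over all times, by genotype plus time (6). Tests were two-sided, with Benjamini-Hochberg adjustment over all genes and a threshold of 0.05. Depth and reads came from GENCODE M21 exon lengths. With them 65.7% to 71.1% of values under 200 reads fell within 0.01 of a whole number, against 2% by chance, and reads of Sept1 and Sept7 were not whole, so they are approximate. Tables and figures used Python 3.11.15. Genes named were the members, Sept2 and Sept11, Ikzf1, cell markers, the 3 nearest by correlation and neighbours. Of the lists, the called genes with the largest changes were named, up to 3 per direction in each comparison. The members and lists were chosen with earlier results of these data known. Alternatives were another pseudocount, filters, scalings, a replicate block, voom and leaving out each library.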

Additional observations from a re-analysis of the deposited data

How the results depend on the processing

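Of the numbers of members called, those between genotypes (0) and for interactions (0) held under the alternatives run, while the 3 at 120 against 0 min became 4 under median ratio scaling and the 3 at 120 against 30 min became 4 under median ratio scaling, limma-voom and without WT 30 min replicate 2, each time by adding Sept7. At 30 against 0 min the count of 1 became 0 after scaling by the median ratio, 2 (Sept7 and Sept8) with the replicate number as a block, 2 with limma-voom, and 0 to 1 on leaving out single libraries. The block is given here because the numbers share no stated origin, and deviations of equal numbers correlated at 0.0369 to 0.23 between groups. It takes both 120 min libraries as number 2, as their descriptions do, although the title of the Ikaros-Zn4-/- one says 1. It changed no other count. Differences that had not passed changed sign as follows, the cause not tested. After median ratio scaling, Sept1 between genotypes over all times was -0.0343, Sept6 at 30 against 0 min 0.11 and Sept9 between genotypes at 0 min -0.0199. After quantile normalization these were -0.10 for Sept1 over all times, -0.0135 for Sept1 between genotypes at 30 min and 0.0181 for Sept6. With the block, Sept7 at 120 against 0 min was -0.0856, and with limma-voom the Sept8 interaction at 120 min was 0.29. Leaving out single libraries gave -0.0454 to 0.0475 for Sept1 over all times, -0.0994 to 0.0406 for Sept6 at 30 min, -0.0347 to 0.121 for Sept7 at 120 min, -0.241 to 0.0709 for Sept7 and -0.0068 to 0.0506 for Sept9 between genotypes at 0 min. For interactions it gave -0.0749 to 0.205 for Sept6 and -0.0038 to 0.084 for Sept8 at 30 min, and -0.22 to 0.092 for Sept7 at 120 min. The 120 min changes without either 120 min library could not be estimated over both genotypes. Depth limits WT Sept8, at 13 to 92 reads per library.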
